A study of Mus musculus with 26 samples.

Results

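Germinal vesicle (GV) oocytes that lacked both the low-complexity domain (LCD) of Tet3 and Dnmt3a were compared with oocytes that kept both, using polyadenylated RNA from pools of 10 mouse oocytes. GV oocytes are grown oocytes arrested in meiotic prophase. The comparison rests on 4 of the 26 libraries of the study, chosen by genotype and batch from the labels: DKO 1 and DKO 2, and WT 5 and WT 6, all of batch 3. The DKO oocytes carried the floxed allele Dnmt3af/f, the floxed allele Tet3 LCDf/f and the Zp3-Cre transgene, whose Zp3 promoter drives Cre in growing oocytes. The WT oocytes carried Tet3 LCDf/f without Cre, so both groups share the floxed Tet3 allele. Cre, the floxed Dnmt3a allele and the mouse line cannot be told apart from the loss of the 2 proteins' functions in this comparison. The single mutants of the same batch, LCD KO 6 and LCD KO 7 (Tet3 LCDf/f; Zp3-Cre) and Dnmt3a KO 1 and Dnmt3a KO 2 (Dnmt3af/f; Zp3-Cre), are set beside DKO. They were compared with the same WT libraries, so the 3 comparisons are not independent of each other.

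Dnmt3a is the methyltransferase that lays down new cytosine methylation in growing oocytes, together with its cofactor Dnmt3l. Tet3 is the dioxygenase that oxidizes methylated cytosine and is the main Tet enzyme of the oocyte and zygote. Methylation in the oocyte genome lies largely over transcribed gene bodies and at maternally imprinted regions, and the fully grown oocyte is close to transcriptionally silent, so that its RNA reflects what was made and kept during growth.

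The 4 libraries held between 2653218 and 3409979 counts on between 13761 and 14164 detected genes. The oocyte markers were abundant in each of them: the summed level of 8 markers (Zp1, Zp2, Zp3, Gdf9, Bmp15, Oosp1, Nlrp5 and Figla) was 15900 and 11870 CPM (counts scaled to library size) in DKO 1 and DKO 2, and 15090 and 14590 in WT 5 and WT 6. Of 25 granulosa and cumulus markers, 11 were at 0 in all 4 libraries, among them Amh, Foxl2 and Gja1. Other members were present in all 4. Cyp19a1 stood at 29.4 and 33.3 CPM in DKO and 33.8 and 30.7 in WT, and Nr5a2 at 23.3 and 24.6 in DKO and 31.0 and 25.3 in WT. The chi-square of the counts per degree of freedom was 10.88 within the DKO pair and 11.75 within the WT pair, so the members of each pair are distinct libraries.

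Both targeted genes were lower in both DKO libraries. Dnmt3a stood at 100.3 and 97.9 CPM in DKO 1 and DKO 2, and at 312 and 349 in WT 5 and WT 6. The groups were far apart and the DKO pair was nearly equal; the log2 fold change was -1.74 ± 0.21 (standard error; adjusted p = 1.7e-05). Tet3 stood at 66.1 and 57.5 CPM in DKO and 158 and 221 in WT, again without overlap, with a log2 fold change of -1.62 ± 0.36 (adjusted p = 0.0166). The Tet3 call was lost without DKO 1 (adjusted p = 0.0964), without DKO 2 (0.141) and without WT 6 (0.145). Counts per gene cannot tell a lower transcript from reads missing in a deleted part. In the single mutants the matching gene alone was lower: Tet3 was at 54.6 and 74.4 CPM in LCD KO and 236 and 377 in Dnmt3a KO, while Dnmt3a was at 416 and 366 CPM in LCD KO and 133 and 108 in Dnmt3a KO. Adjusted p-values throughout come from the quasi-likelihood F test of edgeR with Benjamini-Hochberg adjustment over 11794 genes, and a gene is called, and said to have risen or fallen, where that p is below 0.05. Sizes of rises and falls are log2 fold changes ± standard error. The p-values rest on pools that the labels call biological replicates.

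**Figure D1:**
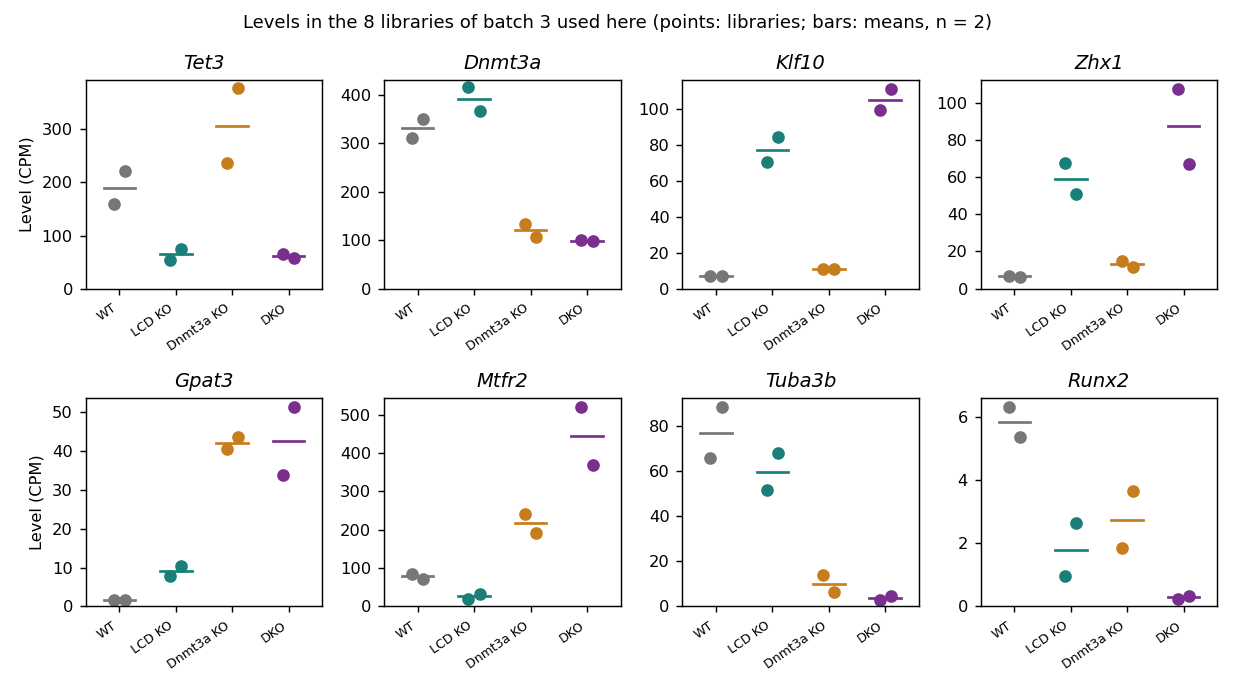
Levels of 8 genes (vertical axes, CPM) in each of the 8 libraries of WT, LCD KO, Dnmt3a KO and DKO in batch 3, with points for libraries and bars for means of 2 libraries. Tet3 was low where the LCD was deleted, Dnmt3a where Dnmt3a was deleted, and both in DKO. Klf10 and Zhx1 were high in LCD KO and DKO. Gpat3 was high in Dnmt3a KO and DKO and rose less in LCD KO.

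The row RGC-CRE, taken here by its name as a Cre sequence (what RGC stands for is not given in the sources used here), had 0 counts in WT 5 and WT 6 and 85 and 38 counts in DKO 1 and DKO 2, at least 40.7-fold higher against a floor of 3 counts over the WT libraries. The labels place Cre in DKO and not in WT. Mt1, a metallothionein that binds zinc and copper, moved with the Cre row: it stood at 193 and 276 CPM in DKO and at 0.949 and 1.08 in WT, a log2 fold change of 7.81 ± 0.39. It was as high in LCD KO (224 and 174 CPM) and Dnmt3a KO (283 and 184 CPM), and its relative Mt2 had at most 1 count in each of these 8 libraries. Mt1 was therefore high in each of these 3 Cre-carrying genotypes, and whether its level comes from the mutations or from the transgene was not tested.

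DKO differed from WT at 291 of 11794 genes (2.47%), of which 159 were higher (1.35%) and 132 lower (1.12%). These 291 include 2 rows that are no mouse genes, RGC-CRE and RGC-GFP. The changes were large where they were called: 252 were at least 2-fold (145 higher and 107 lower), 91 at least 4-fold (57 higher and 34 lower), and the median absolute log2 fold change of the called genes was 1.58. Over all tested genes the median log2 fold change was -0.0012. In all 291, both DKO libraries lay on the called side of both WT libraries, an arrangement found at 20.9% of tested genes in the higher direction and 20.6% in the lower. Genes with a mean of 50 CPM or more in DKO or in WT made up 89 of the called genes (49 higher and 40 lower). In the same fit LCD KO had 174 calls (1.48%), with 101 genes higher (0.856%) and 73 lower (0.619%), and Dnmt3a KO had 63 (0.534%), with 31 higher (0.263%) and 32 lower (0.271%), against the same WT libraries; whether the numbers differ was not tested. The counts rest on 2 libraries a group. Without 1 library the DKO count lay between 100 and 160, with 139 without DKO 1, 160 without DKO 2, 100 without WT 5 and 133 without WT 6. The LCD KO count was 29 without WT 5 and 79 without WT 6, and the Dnmt3a KO count 48 and 43. Of the 291 genes, 225 lay outside the range of all 6 WT libraries of the 3 batches. These were 130 of the 159 higher (81.8%, against 10.5% of all tested genes) and 95 of the 132 lower (72%, against 7.58%). WT 5 and WT 6 are among these 6, and all 291 genes already lay apart from both, so high shares were partly built in. Both DKO libraries lay above WT 5 and WT 6 at 2470 of all tested genes, and above all 6 WT libraries at 1242. They lay below at 2428 and 894. Of the 62 called mouse genes that the naming rule picked, 12 had at least 1 DKO library inside the range of the 6 WT libraries. Among them were Dctn6, H2-Aa, H2-T10, Kcnip1, Oog1, Pdgfrl, Pdia6, Tmem86a, Tpm4, Trim15 and Xiap.

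**Figure D2:**
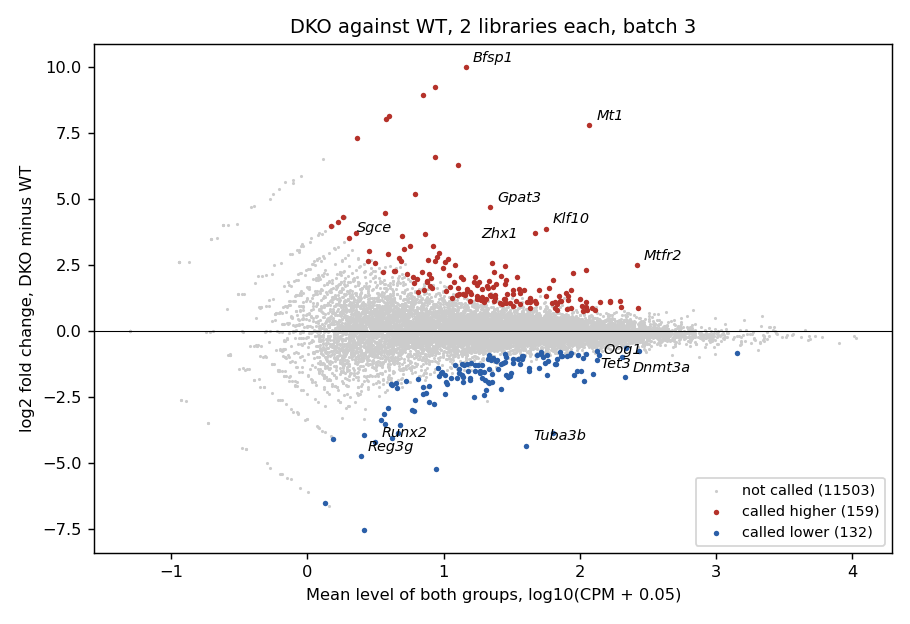
Log2 fold change of DKO over WT (vertical axis) against mean level, log10(CPM + 0.05) (horizontal axis), for 11794 genes. The 159 genes called higher (red) and 132 called lower (blue) reached from low to high levels, and most genes lay near 0.

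Klf10 and Zhx1, markers of this comparison chosen with earlier results known, both rose. Klf10, a TGF-beta-inducible repressor with zinc fingers, stood at 99.5 and 111 CPM in DKO and 7.27 and 7.0 in WT. The pairs were far apart and each was tight; Klf10 rose by 3.88 ± 0.26 (adjusted p = 1.6e-10). It was at 70.5 and 84.7 CPM in LCD KO and 11.1 and 10.8 in Dnmt3a KO, where it was not called (adjusted p = 0.448). Zhx1, a repressor with zinc fingers and homeodomains, stood at 107 and 67.3 CPM in DKO and 6.64 and 6.47 in WT, a rise of 3.74 ± 0.34 (adjusted p = 1.25e-07). DKO 1 was higher than DKO 2, and both exceeded every WT library of the study (6.28 to 11.4 CPM). Zhx1 was at 67.4 and 50.8 CPM in LCD KO and 14.8 and 11.9 in Dnmt3a KO, and the latter was not called (adjusted p = 0.295). Klf11, the closest relative of Klf10, rose by 1.03 ± 0.24, from 39.2 and 50.9 CPM in WT to 96.5 and 87.5 in DKO; this call was lost without DKO 1 (adjusted p = 0.114), DKO 2 (0.054) and WT 5 (0.207). Klf10 and Klf11 were the called members among 13 tested KLF and SP factors (2 rose, 0 fell, median log2 fold change 0.15). Over all tested genes 2.47% were called. Klf6 had a log2 fold change of 1.91 ± 0.56 (adjusted p = 0.0691). Zhx1 was the called member of 9 tested zinc finger homeobox genes, against the same 2.47%. Its relative Zhx3 had a log2 fold change of 0.33 ± 0.39 (adjusted p = 0.764). These counts are not read as results about the lists.

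Other abundant genes rose as well, with different patterns in the single mutants. Mtfr2, a regulator of mitochondrial fission, stood at 519.8 and 369 CPM in DKO and 85.7 and 71.1 in WT. It rose by 2.50 ± 0.27 (adjusted p = 2.07e-06), and both DKO libraries lay above the 6 WT libraries of all batches (71.1 to 243 CPM). The single mutants lay on opposite sides of WT 5 and WT 6. Mtfr2 was at 20.7 and 33.6 CPM in LCD KO (log2 fold change -1.52 ± 0.28, adjusted p = 0.0045). It was at 242 and 191 CPM in Dnmt3a KO (1.46 ± 0.26, adjusted p = 0.00303), inside the range of the 6 WT libraries. Gpat3, an acyltransferase of triglyceride synthesis, stood at 33.7 and 51.1 CPM in DKO and 1.58 and 1.62 in WT, a rise of 4.70 ± 0.49 (adjusted p = 1.55e-06). Gpat3 was at 40.3 and 43.6 CPM in Dnmt3a KO, inside the span of the DKO pair, and at 7.94 and 10.3 in LCD KO. WT libraries of the other batches reached 31.6 CPM, and with additive terms for group and batch its log2 fold change was 2.97 and not called (adjusted p = 0.0984).

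Kyat3, a kynurenine aminotransferase, stood at 174 and 118 CPM in DKO against 34.5 and 28.6 in WT, a rise of 2.22 ± 0.32. Psme2, a subunit of the PA28 proteasome activator, stood at 101 and 102 CPM in DKO against 30.0 and 22.9 in WT and rose by 1.94 ± 0.28. Arl13b, a GTPase of primary cilia, stood at 42.8 and 65.6 CPM in DKO against 17.4 and 18 in WT and rose by 1.6 ± 0.25. For these 3 genes both DKO libraries lay above all 6 WT libraries of the series, and the adjusted p-values were 2.39e-04, 2.57e-04 and 4.45e-04. All 3 were also higher in LCD KO (log2 fold changes 1.36 ± 0.32, 1.65 ± 0.28 and 1.44 ± 0.25), whereas their values in Dnmt3a KO were 0.86 ± 0.32, 0.50 ± 0.29 and 0.10 ± 0.26 and were not called. Mxd4, a MAX partner that opposes MYC, stood at 112 and 146 CPM in DKO against 34.2 and 52.8 in WT (rise of 1.56 ± 0.32, adjusted p = 0.0064), a call lost without DKO 2 (adjusted p = 0.0728) and without WT 5 (0.144). Mxd4 was also higher in LCD KO (131 and 136 CPM, 1.61 ± 0.32) and was not called in Dnmt3a KO (0.07 ± 0.32). In WT of batch 2 it stood at 97.55 CPM. Trim15, a member of the TRIM family, stood at 94.7 and 84.1 CPM in DKO against 33.5 and 24.2 in WT (rise of 1.63 ± 0.28, adjusted p = 0.0013). Its WT level ran from 24.2 to 208 CPM over the 3 batches, which contains both DKO values, and the call was lost without WT 6 (adjusted p = 0.0504).

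Several genes that were close to silent in WT 5 and WT 6 rose to low or moderate levels. Bfsp1, a filament protein of the lens, had 0 counts in WT 5 and WT 6 and 111 and 89 in DKO 1 and DKO 2, at least 66.2-fold higher against the floor of 3 counts over the WT libraries. Bfsp1 differed between batches of 1 genotype: it had 0 counts in LCD KO of batches 1 and 3 and in Dnmt3a KO, but 34.7 and 37.2 CPM in the libraries labelled Tet3 KO and 9.65 and 9.96 CPM in LCD KO of batch 2. The libraries labelled Tet3 KO go against that label, with Tet3 at 263 and 359 CPM and Dnmt3a at 143 and 105 CPM. Slc38a1, a transporter of neutral amino acids, was at least 19-fold higher (47 and 11 counts), and its call was lost without DKO 1 (adjusted p = 0.077), WT 5 (0.0635) and WT 6 (0.0662). Mpdu1, which is needed for the use of dolichol-linked mannose in glycosylation, was at least 9.93-fold higher (13 and 17 counts), a call lost without DKO 2 (adjusted p = 0.059), WT 5 (0.108) and WT 6 (0.102).

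Another 4 genes rested on 1 or 2 counts over both WT libraries, so only a ratio with its 95% counting interval is given. The ratio of DKO to WT was 20.9 for Rab13, a small GTPase of junctional traffic (interval 3.35 to 862), and 18.9 for Kcnip1, a subunit of potassium channels (interval 3.00 to 784). It was 14.4 for Cbx8, a Polycomb subunit (interval 3.64 to 124), and 12.9 for Sgce, an imprinted gene that encodes epsilon-sarcoglycan (interval 3.23 to 112). WT of the other batches reached 1.80 CPM for Rab13, 3.14 for Cbx8 and 1.96 for Sgce. For Kcnip1 it reached 5.05 CPM, above both DKO libraries (2.79 and 2.69). With additive group and batch terms Rab13 (log2 fold change 2.00, adjusted p = 0.11), Kcnip1 (1.27, 0.415) and Cbx8 (2.07, 0.0998) were not called. Sgce was called with these terms (3.20, 0.0101). Skor1, a corepressor of the SKI family, stood at 2.28 and 18.2 CPM in DKO against 1.58 and 0.539 in WT, and Ppm1k, a phosphatase of branched-chain amino acid catabolism, at 3.04 and 15.1 CPM in DKO against 0.316 and 1.62 in WT. In both, DKO 2 was several times higher than DKO 1, and without DKO 2 neither was called (adjusted p = 0.634 and 0.502). Tmem86a, a lysoplasmalogenase, stood at 6.84 and 3.03 CPM in DKO against 0.949 and 0.269 in WT, inside the range of the 6 WT libraries (up to 3.07 CPM) for DKO 2. Galnt13, which starts O-linked glycan chains, stood at 12.4 and 20.5 CPM in DKO against 2.53 and 1.62 in WT, a rise of 2.98 ± 0.57 (adjusted p = 0.00352) that was lost only without WT 6 among the 4 libraries (adjusted p = 0.081). Rab13, Kcnip1, Cbx8, Sgce, Tmem86a, Skor1 and Ppm1k each lost their call in at least 3 of the 4 fits that left out 1 library, with adjusted p up to 0.199 (Rab13, without WT 6), 0.288 (Kcnip1, WT 6), 0.199 (Cbx8, WT 5), 0.23 (Sgce, WT 6) and 0.287 (Tmem86a, DKO 1).

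**Figure D3:**
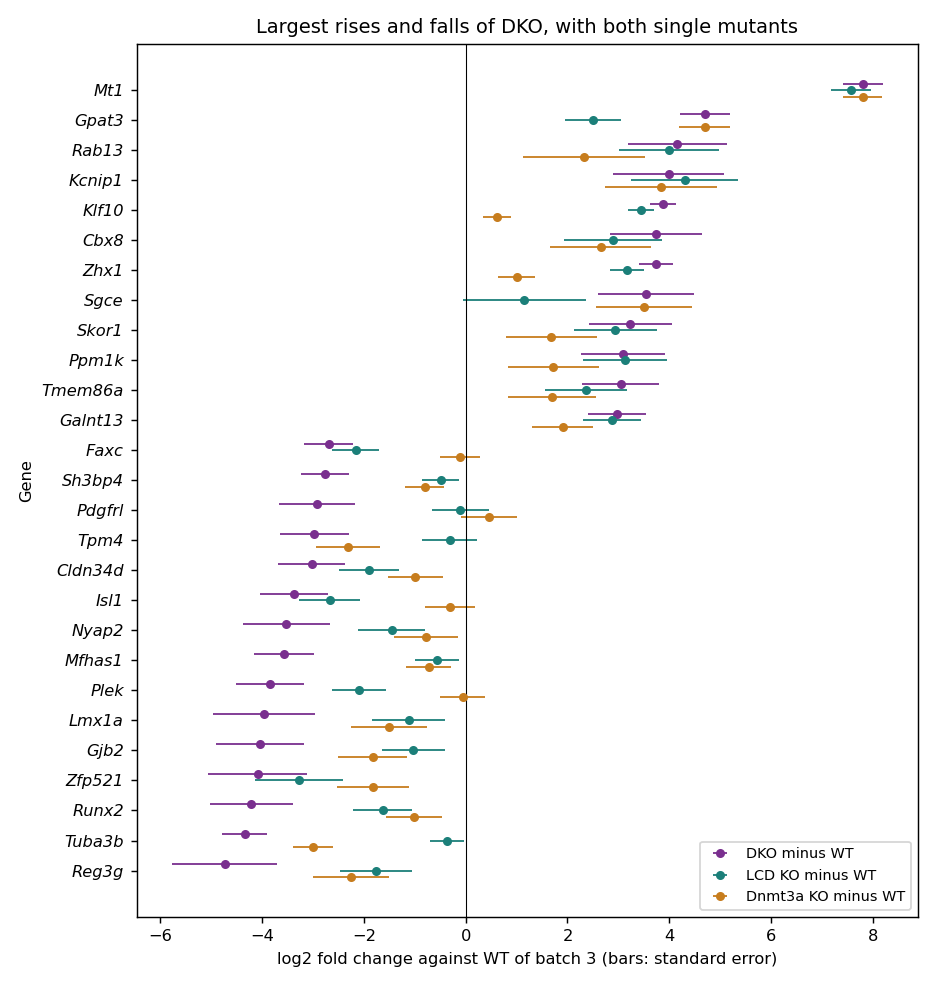
Log2 fold change against WT of batch 3 (horizontal axis; bars, standard error) of the genes with the largest rises and falls that have counts in both groups, for DKO, LCD KO and Dnmt3a KO, with 2 libraries each and shared WT libraries. Klf10, Zhx1 and Galnt13 lay close together in DKO and LCD KO, and Gpat3 and Sgce in DKO and Dnmt3a KO.

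Among the genes that fell, Tuba3b, an alpha-tubulin best known from the testis, had the largest fall of those above 50 CPM in WT. It stood at 3.04 and 4.71 CPM in DKO and 65.8 and 88.4 in WT, with no overlap. It fell by 4.34 ± 0.44 on the log2 scale (adjusted p = 1.58e-06), and was at 14.1 and 6.26 CPM in Dnmt3a KO and 51.5 and 68.1 in LCD KO. A near-identical copy, Tuba3a, exists, and reads of the pair cannot be assigned with certainty. Dctn6, a dynactin subunit, stood at 37.0 and 50.8 CPM in DKO against 164 and 110.2 in WT and fell by 1.65 ± 0.28, although its WT level ranged from 18.8 to 164 CPM over the batches.

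Krt12, a keratin, stood at 26.8 and 27.9 CPM in DKO against 101 and 73.8 in WT, a fall of 1.67 ± 0.24 (adjusted p = 1.56e-04). Pcdh9, a protocadherin, stood at 54.9 and 44.4 CPM in DKO against 130.3 and 151 in WT, a fall of 1.5 ± 0.23 (adjusted p = 3.8e-04). The DKO pair of both genes lay below all 6 WT libraries. Krt12 was also lower in LCD KO (48.0 and 33.6 CPM) and was at 112 and 80.5 CPM in Dnmt3a KO. Pcdh9 was likewise lower in LCD KO (47.3 and 56.1 CPM) and was at 124 and 157 in Dnmt3a KO. Chd7, a chromatin remodeller, stood at 24.3 and 22.2 CPM in DKO against 55.7 and 66.0 in WT (fall of 1.38 ± 0.28), and Zfp982, a zinc finger gene, at 26.1 and 29.3 CPM in DKO against 80.3 and 66.0 in WT (fall of 1.40 ± 0.29). Both were also lower in LCD KO (log2 fold changes -1.10 ± 0.27 and -1.48 ± 0.29) and were not called in Dnmt3a KO (-0.18 ± 0.26 and 0.07 ± 0.27). These are the limits of both calls in DKO. Chd7 lost its call without DKO 2 (adjusted p = 0.0629) and WT 6 (0.0605), and Zfp982 without DKO 1 (0.0895) and WT 5 (0.0841). H2-T10, a class Ib histocompatibility gene, stood at 38.7 and 40.4 CPM in DKO against 92.3 and 94.0 in WT (fall of 1.24 ± 0.23); over the batches its WT level ran from 0.361 to 110.3 CPM, and with additive group and batch terms it was not called (adjusted p = 0.39).

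A further set of genes was present at low levels in WT and fell to near 0 in DKO. Plek, pleckstrin of blood cells, stood at 0.760 and 0.336 CPM in DKO against 9.17 and 8.08 in WT, a fall of 3.84 ± 0.66 (adjusted p = 0.00123). Mfhas1, a leucine-rich repeat protein, stood at 1.01 and 0.336 CPM in DKO against 7.59 and 9.97 in WT, a fall of 3.57 ± 0.59 (adjusted p = 7.54e-04). Its WT level differed between batches, at 1.26 to 2.43 CPM in batch 1 and 10.46 in batch 2. The size of its fall therefore depends on the WT level of batch 3. Sh3bp4, a regulator of endocytosis, stood at 2.53 and 1.68 CPM in DKO against 13.3 and 16.2 in WT, a fall of 2.76 ± 0.47 (adjusted p = 9.18e-04). These 3 calls held without each library in turn, and the DKO values lay below all 6 WT libraries. The LIM homeodomain factor Isl1 stood at 0.506 and 0.673 CPM in DKO against 6.01 and 6.47 in WT (fall of 3.37 ± 0.67), and was not called without DKO 1 (adjusted p = 0.0793). Faxc stood at 1.77 and 2.36 CPM in DKO against 17.1 and 9.70 in WT (fall of 2.69 ± 0.48) and was not called without DKO 1 (0.0507) or WT 5 (0.0525). Plek, Isl1 and Faxc were also lower in LCD KO (log2 fold changes -2.10 ± 0.53, -2.67 ± 0.61 and -2.16 ± 0.45) and were not called in Dnmt3a KO (-0.06 ± 0.45, -0.31 ± 0.49 and -0.11 ± 0.39). By contrast Mfhas1 and Sh3bp4 were called in neither single mutant, with log2 fold changes of -0.57 ± 0.43 and -0.49 ± 0.37 in LCD KO and -0.73 ± 0.44 and -0.80 ± 0.38 in Dnmt3a KO; whether their change in DKO exceeds the sum of both was not tested.

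A further 5 genes held 1 to 3 counts over both DKO libraries. Runx2, the transcription factor of bone formation, had 1 count in each DKO library and 20 in each WT library, a ratio of 0.050 (interval 0.00581 to 0.192). Reg3g, an antimicrobial lectin, had a ratio of 0.032 (interval 0.000786 to 0.192), and Gjb2, a connexin of gap junctions, 0.056 (interval 0.0112 to 0.173). The ratio was 0.050 for Zfp521, a zinc finger factor of progenitor cells (interval 0.0012 to 0.31), and 0.060 for Lmx1a, a LIM homeodomain factor (interval 0.00700 to 0.235). All 5 were at lower levels in both single mutants than in WT without passing the test in either. The other large falls were those of Nyap2, an adaptor of neuronal PI3K signalling (-3.53 ± 0.85), Cldn34d, a claudin (-3.02 ± 0.66), Tpm4, a tropomyosin (-2.97 ± 0.67), and Pdgfrl (-2.91 ± 0.75), on the log2 scale. Each of these 9 genes lost its call without at least 1 library, with the highest adjusted p: Runx2 0.0707 and Reg3g 0.149 without DKO 1, Gjb2 0.144 without DKO 1, Zfp521 0.146, Lmx1a 0.195 and Nyap2 0.178 without DKO 2, Cldn34d 0.136 and Pdgfrl 0.377 without WT 5, and Tpm4 0.129 without DKO 1.

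The oocyte's own programme holds many transcripts stored for the embryo. Of 53 tested oocyte and maternal-effect genes 0 rose and 1, Oog1, fell, and 52 did not pass, against 2.47% called over all tested genes, so the count is not read as a result about this list. Their median log2 fold change was -0.19, and 47 had a negative value, against 5911 of the 11794 tested genes. Both DKO libraries were below both WT libraries at 22 of the 53 and above at 0, while these arrangements covered 20.6% and 20.9% of all tested genes. Zp3, a zona pellucida glycoprotein, stood at 1926 and 1553 CPM in DKO against 2118 and 2007 in WT (log2 fold change -0.25 ± 0.18, adjusted p = 0.562). Gdf9, the oocyte growth factor that acts on granulosa cells, stood at 4790 and 4229 CPM in DKO against 4769 and 5365 in WT (-0.17 ± 0.17, adjusted p = 0.713). Oog1, an oocyte-specific leucine-rich repeat protein, was lower in Dnmt3a KO (-1.31 ± 0.28, adjusted p = 0.0207) as well as in DKO. In DKO it stood at 84.3 and 86.1 CPM against 221 and 140.4 in WT, a fall of 1.08 ± 0.28 (adjusted p = 0.0349). The highest WT libraries of other batches reached 274 CPM and the lowest 75.2. Its call was lost without DKO 1 (adjusted p = 0.18), DKO 2 (0.158) and WT 5 (0.333).

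No call was made by edgeR among the 42 tested genes of maternal mRNA storage and decay (6 with an unadjusted p below 0.05; 0 by DESeq2) or the 50 of meiotic maturation and the spindle (7 and 0), where 2.47% of all tested genes were called. In edgeR fits with other settings, Pabpn1l was called lower without the filter on low counts (adjusted p = 2.53e-04), Pabpn1l and Cpeb1 with additive terms (0.0491 and 0.0495), and in the second list Smc1b without the filter (0.0221) and Bub1 with additive terms (0.0259). Pabpn1l, the adaptor of maternal mRNA clearance, stood at 485 and 531 CPM in DKO against 853 and 1133 in WT (-0.97 ± 0.32, adjusted p = 0.122). Mos, the kinase that activates MAPK in the maturing oocyte, stood at 553 and 491 CPM in DKO against 825 and 704 in WT (-0.55 ± 0.21, adjusted p = 0.192). The medians of the 2 lists were -0.12 and -0.01, and the former was 0.06 without WT 6. Among 13 tested genes of genome activation in the 2-cell embryo 0 were called by edgeR (3 with an unadjusted p below 0.05; 0 by DESeq2), with a median of -0.23.

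Of 30 tested members of the DNA methylation machinery 0 rose and 2 fell, which were the 2 targeted genes, against 2.47% called over all tested genes. The absence of other calls is not read as a result about this list. Dnmt1, the maintenance methyltransferase, stood at 709.9 and 473 CPM in DKO against 749 and 701 in WT (-0.29 ± 0.28, adjusted p = 0.69), and Dnmt3l at 166 and 142 CPM in DKO against 214 and 178 in WT (-0.34 ± 0.24, adjusted p = 0.545). Tet1 was low in both groups, at 4.30 and 4.04 CPM in DKO against 7.59 and 4.58 in WT (-0.53 ± 0.49, not called). Tet2 was low as well, at 5.32 and 4.37 CPM in DKO against 3.16 and 4.31 in WT (0.37 ± 0.51, not called). Base excision repair genes act on the products of Tet oxidation. Of 23 tested, 0 were called by edgeR (4 with an unadjusted p below 0.05, and 0 by DESeq2), against the same 2.47%.

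Of 46 tested germ cell genes under methylation control 2 rose and 1 fell, against 2.47% called over all tested genes, with a median of -0.06; 6 were called without the filter on low counts. Xlr4a, an X-linked gene of the Xlr family, stood at 66.6 and 83.4 CPM in DKO against 31.9 and 19.4 in WT, a rise of 1.55 ± 0.26 (adjusted p = 7.76e-04), and was also higher in Dnmt3a KO (1.20 ± 0.26, adjusted p = 0.0212). Xlr4a belongs to a family of near-identical copies, so its counts are uncertain. Tex19.2, a mammal-specific germ cell gene, stood at 24.3 and 28.3 CPM in DKO against 9.17 and 13.7 in WT, a rise of 1.18 ± 0.28 that was lost without DKO 1 (adjusted p = 0.0502), DKO 2 (0.112) and WT 5 (0.219); the member that fell was Tuba3b. Tex19.2 was also higher in LCD KO (1.42 ± 0.27, adjusted p = 0.00753) and was not called in Dnmt3a KO (0.89 ± 0.28, adjusted p = 0.195). In WT of batch 2 it stood at 19.65 CPM. Of 33 tested genes of maternally methylated imprinted regions 1 rose, Sgce, and 0 fell, against the same 2.47%, with a median of -0.21. Sgce was at 4.30 and 3.03 CPM in DKO and 4.07 and 3.24 in Dnmt3a KO, against 0.316 and 0.269 in WT and 0.635 and 0.720 in LCD KO. Mest, another gene of that kind, stood at 179.5 and 133 CPM in DKO against 195 and 185 in WT (-0.28 ± 0.19, adjusted p = 0.515).

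**Figure D4:**
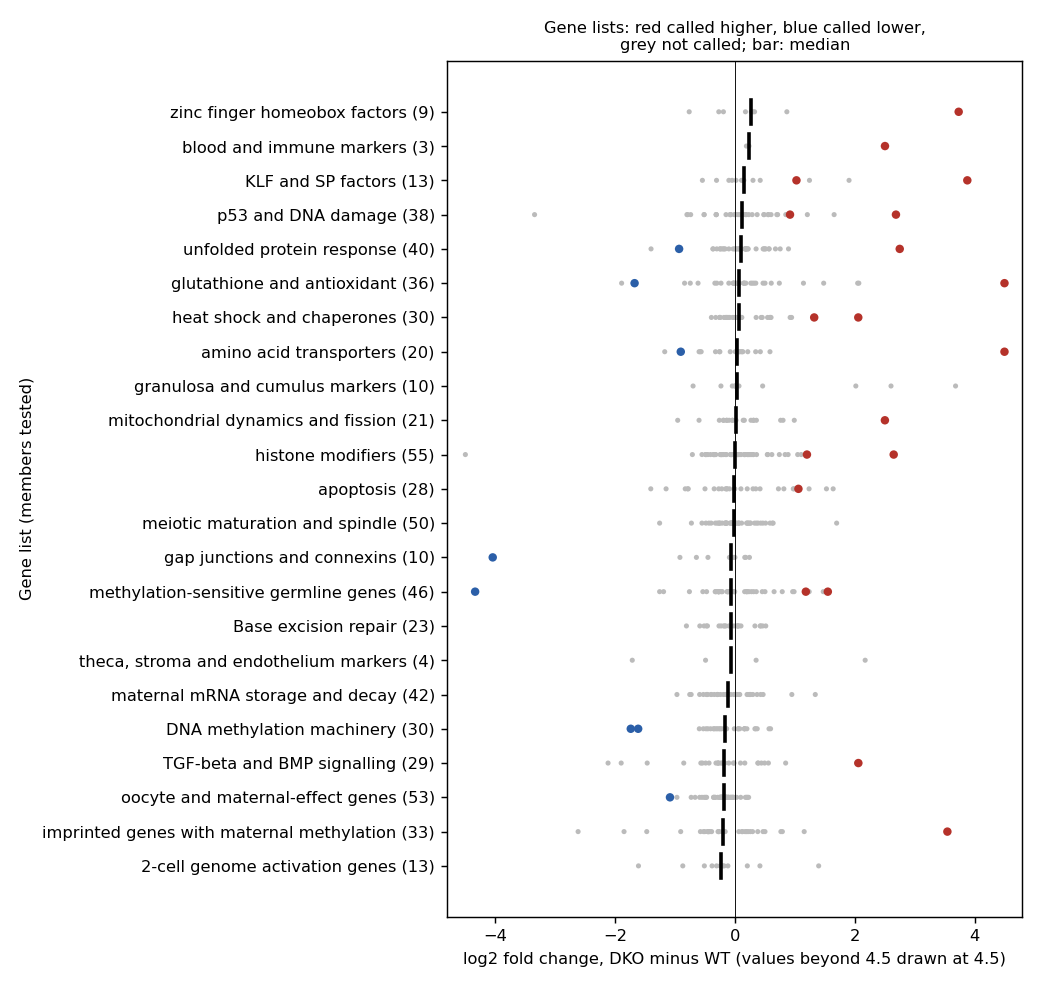
Log2 fold change of DKO over WT (horizontal axis; values beyond 4.5 drawn at 4.5) of the tested members of 23 gene lists, with the number tested in parentheses and a bar at the median. Most members lay near 0, and no list had more than 2 members called in 1 direction.

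The stress-related lists held 2 called genes each, of between 30 and 40 tested, against 2.47% called over all tested genes; such small counts are not read as a result about the lists. Of 40 tested genes of the unfolded protein response 1 rose and 1 fell, with a median of 0.11. Xbp1, the transcription factor of that response, stood at 22 and 15.5 CPM in DKO against 3.16 and 2.42 in WT; the pairs did not overlap and the rise was 2.75 ± 0.39 (adjusted p = 1.95e-04). Hspa5, the chaperone BiP that defines the response, stood at 424 and 507 CPM in DKO against 377 and 437 in WT (0.19 ± 0.24, adjusted p = 0.774). Pdia6, a disulfide isomerase, stood at 58.7 and 52.2 CPM in DKO against 90.4 and 121 in WT and fell by 0.93 ± 0.25, and was not called in any fit that left out 1 library (adjusted p 0.139 without DKO 1, 0.224 without DKO 2, 0.0609 without WT 5 and 0.29 without WT 6). Pdia6 was also lower in Dnmt3a KO (-1.25 ± 0.25, adjusted p = 0.0106), and Xbp1 was also higher in LCD KO (1.59 ± 0.41, adjusted p = 0.0492). Of 30 heat shock and chaperone genes 2 rose. Hspb1, a small heat shock protein, stood at 19.7 and 34.7 CPM in DKO against 7.91 and 5.12 in WT, a rise of 2.06 ± 0.35 (adjusted p = 0.00113), and was also higher in LCD KO (1.82 ± 0.35). Hspa13 stood at 33.2 and 29.9 CPM in DKO against 14.5 and 10.8 in WT (1.32 ± 0.32) and was not called without any 1 of the libraries (adjusted p 0.123, 0.0629, 0.0841 and 0.214 without DKO 1, DKO 2, WT 5 and WT 6).

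Of 38 tested p53 and DNA damage genes 2 rose and 0 fell, with a median of 0.12. Sesn1, a sestrin that restrains mTORC1 and is a p53 target, stood at 15.4 and 11.1 CPM in DKO against 2.53 and 1.62 in WT, a rise of 2.69 ± 0.53 (adjusted p = 0.00417), lost without DKO 1 (0.0523) and WT 6 (0.0883). Trp53inp1, a p53-induced nuclear protein, stood at 148 and 142 CPM in DKO against 75.9 and 77.6 in WT, a rise of 0.92 ± 0.19, lost without DKO 1 (0.0568), WT 5 (0.0963) and WT 6 (0.0643). Sesn1 and Trp53inp1 were also higher in LCD KO (2.58 ± 0.53 and 0.79 ± 0.19, adjusted p = 0.0116 and 0.0348). Trp53 itself stood at 25.8 and 17.2 CPM in DKO against 11.1 and 17.2 in WT (0.60 ± 0.33, adjusted p = 0.408), and the target Ccng1 at 12.2 and 19.5 CPM in DKO against 5.38 and 4.58 in WT (1.66 ± 0.50, adjusted p = 0.0805). Of 36 glutathione and antioxidant genes Mt1 rose and Hmox2, a heme oxygenase, fell, from 49.3 and 38.8 CPM in WT to 13.4 and 14.1 in DKO (-1.68 ± 0.32), lost without DKO 1 (adjusted p = 0.0555) and WT 5 (0.0533).

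Over all tested genes 2.47% were called, and the small counts of the next lists are not read as results about them. In TGF-beta and BMP signalling 1 of 29 tested genes rose and 0 fell, with a median of -0.18. The riser, Id3, an inhibitor of basic helix-loop-helix factors and a target of BMP signalling, stood at 48.4 and 62.6 CPM in DKO against 16.4 and 10.2 in WT, a rise of 2.06 ± 0.32 (adjusted p = 3.7e-04). Both single mutants had intermediate levels of Id3 that were not called, 33.0 and 24.7 CPM in LCD KO and 40.3 and 25.9 in Dnmt3a KO. Of 55 histone modifiers 2 rose: Prmt5, an arginine methyltransferase, at 26.3 and 23.9 CPM in DKO against 7.91 and 13.7 in WT, and Kmt2a, a histone H3 lysine methyltransferase, at 5.06 and 4.37 CPM in DKO against 0.949 and 0.539 in WT. Of 28 apoptosis genes 1 rose, the caspase inhibitor Xiap, at 48.6 and 28.6 CPM in DKO against 21.2 and 16.2 in WT. Of 20 amino acid transporters Slc38a1 rose and Slc6a6, the taurine transporter, fell, at 35.4 and 32.0 CPM in DKO against 66.1 and 60.3 in WT. The calls of Prmt5, Kmt2a, Xiap and Slc6a6 were each lost without at least 3 of the 4 libraries, with a highest adjusted p of 0.265 (Prmt5, without WT 5), 0.27 (Kmt2a, WT 6), 0.458 (Xiap, DKO 1) and 0.224 (Slc6a6, DKO 2). Mtfr2 was the called member of 21 genes of mitochondrial dynamics, and Gjb2 of 10 connexins, where Gja4, the main connexin of the mouse oocyte, stood at 339 and 295 CPM in DKO against 425 and 442 in WT (-0.45 ± 0.21, adjusted p = 0.309).

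Markers of other cells of the ovary were low. The summed granulosa and cumulus markers were 85.1 and 97.6 CPM in DKO and 86.3 and 82.7 in WT, with Cyp19a1 and Nr5a2 the highest members. Of 10 tested members 0 were called by edgeR (1 with an unadjusted p below 0.05, and 0 by DESeq2), where 2.47% of all tested genes were called. Without the filter on low counts edgeR called Inha, an inhibin subunit, which stood at 1.27 and 3.36 CPM in DKO against 0 and 0.269 in WT (3.67, adjusted p = 0.0107). Hsd3b1, a steroidogenic enzyme, stood at 4.56 and 5.05 CPM in DKO against 0.949 and 1.35 in WT. The theca, stroma and endothelium sum was 86.3 and 101 CPM in DKO and 73.7 and 83.2 in WT, with 5 of 15 markers at 0 in all 4 libraries and most of the sum from Pecam1 (78.2 and 87.5 CPM in DKO). The blood and immune sum was 120.3 and 135 CPM in DKO and 99.3 and 88.4 in WT, with 9 of 19 markers at 0 in all 4, among them Cd74 and H2-Ab1, and most of the sum from C1qb (98.5 and 109.7 CPM in DKO). Of 3 tested members of this list H2-Aa, a class II histocompatibility chain, rose, at 18.5 and 22.9 CPM in DKO against 2.53 and 4.58 in WT (2.50 ± 0.40, adjusted p = 5.62e-04). Over the batches the WT level of H2-Aa ran from 2.53 to 58.4 CPM, which contains both DKO values. The part of these differences in the called genes was not tested. In pooled RNA fewer cells of a type and less RNA per cell cannot be told apart.

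The LCD KO and WT libraries of batches 1 and 2 share no library with the DKO comparison. A contrast of them, added after the data were seen, gave fold changes of the called genes from separate libraries. Its calls are not separate from those of DKO, because the same fit gave both their estimate of spread for each gene. The shares called are therefore not independent of the DKO calls. Of the 159 genes higher in DKO, 89 (56%) were called higher in LCD KO there, against 5.25% of all tested genes, and 4 (2.52%) were lower; the median log2 fold change was 0.97. Of the 132 genes lower in DKO, 70 (53%) were called lower, against 5.75%, and 2 (1.52%) were higher; the median was -0.68. The 6 exceptions were Mtfr2, Trim15, H2-Aa and Rgl2, higher in DKO and lower in LCD KO by this contrast, and H2-T10 and H2-T-ps, lower in DKO and higher in LCD KO by this contrast. All except Mtfr2 are genes of chromosome 17. Their log2 fold changes in LCD KO of batches 1 and 2 were -1.53 for Mtfr2, -1.43 for Trim15, -1.03 for H2-Aa, -0.86 for Rgl2, 2.65 for H2-T10 and 1.73 for H2-T-ps.

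Genes next to the 2 deleted loci were examined by gene order in the RefSeq annotation of GRCm38.p6. Over all tested genes 2.47% were called, and the small counts among neighbours are not read as a result about them. Of the 40 tested neighbours of Tet3, 20 on each side, 1 rose, Stambp, an endosomal deubiquitinase, at 109 and 86.5 CPM in DKO against 48.4 and 40.9 in WT (1.13 ± 0.22, adjusted p = 0.00432), and 1 fell, Reg3g. Of 24 tested neighbours of Dnmt3a, 0 were called by edgeR (2 with an unadjusted p below 0.05; 0 by DESeq2). Over the genome 14 pairs of adjacent tested genes were both called, 11 of them in the same direction. How many pairs would arise from calls placed without regard to position was not tested. Among the pairs were Egfr, the epidermal growth factor receptor, and Plek, which both fell. Egfr stood at 10.9 and 18.2 CPM in DKO against 48.1 and 45.0 in WT (-1.70 ± 0.27, adjusted p = 4.45e-04). Tpm3, a tropomyosin, rose beside Rab13, at 76.5 and 94.2 CPM in DKO against 50.3 and 41.5 in WT (0.89 ± 0.20), and H2-T-ps fell beside H2-T10, at 20.5 and 22.9 CPM in DKO against 48.7 and 52.5 in WT (-1.23 ± 0.26). Reads of adjacent genes cannot be separated with certainty where transcripts run on.

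The promoter windows of the called genes were described by their content of CpG, the dinucleotide that carries cytosine methylation in mammals. Windows ran from 250 bases before to 50 after a start of the RefSeq annotation (GRCm38.p6), for genes off chromosome 18, and a gene's value is the median over its windows. The median was 16.5 CpG for 130 of 158 genes called higher, 12 for 105 of 127 called lower and 20 for 9518 of 11496 tested genes. Genes with a value of 5 or fewer CpG made up 13.8%, 28.6% and 11.0% of the 3 sets. The motif CCGCCC, read on both strands, was present in windows of 68.5%, 48.6% and 66.1% of the genes, and CACCC, whose other strand reads GGGTG, in 66.2%, 68.6% and 65.1%. CACGTG was present in 10.8%, 10.5% and 11.6%, and TCCCGC on either strand in 31.5%, 30.5% and 38.6%. These shares are descriptions and were not tested.

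**Figure D5:**
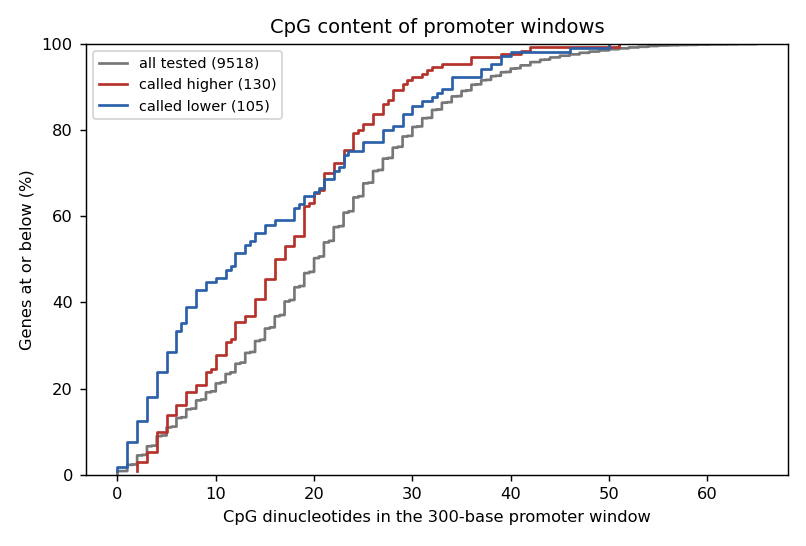
Cumulative percent of genes (vertical axis) by number of CpG dinucleotides in the 300-base promoter window (horizontal axis), for 9518 tested genes, 130 called higher and 105 called lower. The curve of the genes called lower rises first: 28.6% of them had 5 or fewer CpG, against 11.0% of all tested genes.

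The spread of CpG content within the called genes is shown by 5 of them with a single window, chosen after their values were seen. The lines give the 250 bases before the start, 5′ to 3′ on the gene's strand in GRCm38.p6, with each CG in capitals.
Gpat3 (rose; chr5:100845979-100846228, plus strand): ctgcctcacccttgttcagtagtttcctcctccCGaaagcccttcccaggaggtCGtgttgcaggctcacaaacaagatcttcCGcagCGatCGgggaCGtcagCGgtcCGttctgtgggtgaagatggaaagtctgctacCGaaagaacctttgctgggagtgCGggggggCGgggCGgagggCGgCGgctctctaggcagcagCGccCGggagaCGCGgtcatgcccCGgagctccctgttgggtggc
Mtfr2 (rose; chr10:20347569-20347818, plus strand): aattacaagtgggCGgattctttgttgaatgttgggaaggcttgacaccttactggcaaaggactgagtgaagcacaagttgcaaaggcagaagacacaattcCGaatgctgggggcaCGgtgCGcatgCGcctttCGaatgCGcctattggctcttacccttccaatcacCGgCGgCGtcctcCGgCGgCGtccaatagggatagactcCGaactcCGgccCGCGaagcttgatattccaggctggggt
Tuba3b (fell; chr6:145615713-145615962, plus strand): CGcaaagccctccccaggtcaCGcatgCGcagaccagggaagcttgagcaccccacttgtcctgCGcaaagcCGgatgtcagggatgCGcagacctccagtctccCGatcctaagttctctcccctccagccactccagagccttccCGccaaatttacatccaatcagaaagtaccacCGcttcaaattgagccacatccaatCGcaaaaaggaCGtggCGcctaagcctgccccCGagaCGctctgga
Plek (fell; chr11:17008719-17008968, minus strand): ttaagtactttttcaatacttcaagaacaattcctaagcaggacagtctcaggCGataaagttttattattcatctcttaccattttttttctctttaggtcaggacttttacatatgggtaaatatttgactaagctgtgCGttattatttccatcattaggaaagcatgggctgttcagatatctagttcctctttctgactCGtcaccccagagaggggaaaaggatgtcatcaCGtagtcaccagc
Runx2 (fell; chr17:44814628-44814877, minus strand): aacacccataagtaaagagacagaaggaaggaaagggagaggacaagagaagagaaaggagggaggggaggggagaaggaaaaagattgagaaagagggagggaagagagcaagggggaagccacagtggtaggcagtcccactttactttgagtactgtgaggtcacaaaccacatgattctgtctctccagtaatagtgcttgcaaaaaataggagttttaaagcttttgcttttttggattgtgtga
These stretches held 19 CpG for Gpat3, 17 for Mtfr2, 14 for Tuba3b, 4 for Plek and 0 for Runx2. Of the other genes with large falls, Isl1 and Faxc each held 37 CpG in their single 300-base window.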

How the data were processed

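Raw read counts per gene symbol of 26 libraries were deposited by the authors, with no normalization. Per the submitters' processing notes, the tools were Trim Galore 0.5.0, HISAT2 2.1.0 and featureCounts 1.6.4 with mm9; the annotation and strand setting are not given in the sources used here. Overlapping, antisense and near-identical genes are therefore uncertain. From these counts, 92 ERCC rows of 24542 features were left out. The 2 TKO columns held the same values as the 2 Tet3 KO columns and, like 2 HD mutant libraries, have no stated batch, so 22 libraries entered the fit. edgeR 4.0.16 (R 4.3.3) fitted quasi-likelihood models, tested by F, with TMM factors, the filterByExpr filter by genotype and robust dispersions. Each combination of genotype and batch had its own coefficient (12 residual degrees of freedom), and the contrast took DKO and WT of batch 3, so that other libraries lent only an estimate of spread. Benjamini-Hochberg adjustment covered 11794 genes, and genes were called below 0.05. CPM were computed from the counts with TMM factors. Floors (3 counts over a group) and exact 95% counting intervals cover counting error only.

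Genes were named by a rule: the markers of the comparison; the 15 largest rises and falls with a mean of 1 CPM or more in DKO or WT; the 10 largest of at least 50 CPM; called members of the lists, with defining uncalled ones; and Cre, GFP and Mt1. A gene that this rule picked is not reported here. Egfr, Stambp, Tpm3, Rgl2, H2-T-ps, Klf6, Inha, Hsd3b1, Cyp19a1, Nr5a2, Cpeb1, Smc1b, Bub1 and the 5 promoters were chosen after their values were seen. Members and lists were chosen with earlier results of these data known. Alternatives were DESeq2 1.42.0, its size factors, other filters, batch 3 or the 4 libraries alone, additive terms, no Tet3 KO libraries and leaving out each replicate. Promoters are from RefSeq, matched by gene ID, with 82.8% of tested genes matched.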

Additional observations from a re-analysis of the deposited data

Results flagged for a closer look

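RGC-GFP, a row taken by its name as a GFP sequence, which no label of the DKO or WT genotype mentions, was present in DKO. It held 120 and 60 counts in DKO 1 and DKO 2 (mean 25.3 CPM) and 2 and 0 in WT 5 and WT 6, a signal in a row that is no mouse gene and that exceeds the controls. What RGC stands for is not given in the sources used here. The row was tested with the genes and was 1 of the 291 called (log2 fold change 6.31, adjusted p = 0.00618), and the call was lost without WT 5 (adjusted p = 0.0504), without WT 6 (0.0893) and with DESeq2 (0.212). LCD KO 6 and LCD KO 7 held 80 and 39 counts, and Dnmt3a KO 1 and Dnmt3a KO 2 held 5 and 0.

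Mtfr2 moved in opposite directions in the single mutants of batch 3: its log2 fold change against WT was -1.52 in LCD KO and 1.46 in Dnmt3a KO, with both libraries of each group on 1 side of both WT libraries. The difference between the 2 was not tested.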

How the results depend on the processing

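The number of genes called between DKO and WT depended on the fit. It was 459 without a filter on low counts (254 higher, 205 lower, 393 at least 2-fold), 447 with additive group and batch terms (268 higher), 414 with DESeq2, 184 from only the 4 libraries compared (77 lower) and 179 from batch 3 alone (102 higher, 77 lower). Without each replicate in turn it lay between 100 and 160, with 56 to 95 higher, 44 to 75 lower and 100 to 156 at least 2-fold; the share called higher, 54.6% in all, was 68.3% without DKO 1 and 43.6% without WT 6. In a fit that leaves 1 library in a group, that library is assumed to vary like the other groups. LCD KO had 334 calls without the filter, 88 from batch 3 alone, 2162 with additive terms, 310 with DESeq2 and between 29 and 194 without each replicate, and Dnmt3a KO had 210 without the filter and 115 with DESeq2. Of the 291 genes, 47 were called in all 12 alternatives and 49 without each replicate in turn, and 0 changed sign; of the 62 called mouse genes that the naming rule picked these were 21 and 23. Of these 62 genes 50 lay outside the range of the 6 WT libraries of all batches, an alternative chosen after seeing the data. The list medians kept their sign under every setting in 10 of 23 lists. No paired analysis was possible because the compared groups share no replicate number (WT 5 and 6, DKO 1 and 2). Each group had 2 libraries, and genes of a few counts have wide intervals.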
